A study of Mus musculus with 8 samples.

Results

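The genes described here are the interleukins and their receptor chains: every gene whose symbol in the array annotation begins with Il and a digit. There were 76 such genes among 19505 named genes, each with 1 probe set, and 36 of them encode cytokines, 36 receptor chains and 4 soluble antagonists. The rule uses the symbols and no measured value. Il12b and Il2rg were not analysed here.

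The cells were type 1 conventional dendritic cells (cDC1) from the spleens of naive wild-type C57BL/6 mice, sorted into a TMRM/MG-high fraction (4 arrays) and a TMRM/MG-low fraction (4 arrays). TMRM is a dye that mitochondria take up according to their membrane potential, and the labels do not spell out MG. All animals were wild type and untreated, and the labels used here give no age and do not say whether a replicate number stands for an animal or a pool, so the p-values rest on the scatter of these arrays, which may be technical. The comparison asks whether cDC1 that differ in mitochondrial signal also differ in the cytokines they can make and the cytokines they can sense.

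Interleukins are secreted proteins that leukocytes use to signal to each other. Most act through receptors built from a private chain that recognises the cytokine and a chain shared by several cytokines, which pass the signal to JAK kinases and STAT factors, while receptors of the IL-1 family signal through MyD88. Dendritic cells make IL-12, IL-15, IL-18 and IL-27 when they prime T cells and NK cells, and IL-15 is held on the surface of the presenting cell by its own receptor chain Il15ra and shown to Il2rb on the neighbouring lymphocyte.

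Values are deposited log2 RMA signals, and differences are the TMRM/MG-high mean minus the TMRM/MG-low mean on that log2 scale, tested with limma and adjusted by Benjamini-Hochberg over all 22206 probe sets, with a call at an adjusted p under 0.05. As a floor, the median of 5222 negative control probe sets was 6.86 in TMRM/MG-high and 6.76 in TMRM/MG-low arrays. Of the 76 genes, 20 lay below it in both fractions and 56 were above it in at least 1. All 10 cDC1 markers (Xcr1, Clec9a, Irf8, Batf3 and others) were above the floor, with a list mean of 12.0 to 12.2 in TMRM/MG-high and 11.9 to 12.2 in TMRM/MG-low arrays, and 0 were called. Arrays of 1 fraction correlated across probe sets at r = 0.992 to 0.994 in TMRM/MG-high and 0.99 to 0.992 in TMRM/MG-low. The poly-A spike-in RNAs added to the samples averaged 6.32 ± 0.44 in TMRM/MG-high and 7.55 ± 0.28 in TMRM/MG-low arrays (SD, n = 4 each) without overlap. Hybridization controls, at 11.7 to 11.9 in TMRM/MG-high and 12.3 to 12.6 in TMRM/MG-low arrays, and the median of the positive controls, at 10.38 to 10.49 in TMRM/MG-high and 10.21 to 10.37 in TMRM/MG-low arrays, did not overlap either. The part of these controls in the differences below was not tested, apart from a fit with the poly-A level as a covariate.

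Few interleukin genes differed between the fractions. In TMRM/MG-high cDC1 the cytokine gene Il15 and the receptor chain genes Il1rap and Il1rl2 were higher, and the receptor chain genes Il2rb and Il18rap were lower. These 5 calls are 6.58% of the 76 genes, against 8.25% of all probe sets tested, so the family as a whole was called no more often than the array at large. Split by direction, 3 genes rose, against a background of 5.28%, and 2 fell, against 2.96%. After quantile normalization of the tested probe sets the same 5 genes were called, against a background of 3.84% higher and 3.86% lower, so the excess of higher calls over the array depends on the scaling. Leaving aside genes below the floor in both fractions, 4 of 56 were called (7.14%, against 10.5% of the probe sets above the floor). The median difference over the 76 genes was -0.02, beside 0.01 over all probe sets. The fractions did not overlap in 8 of the 76 genes (10.5%, against 16.1% of all probe sets): Il15, Il1rap, Il1rl2, Il2rb, Il27, Il23r, Il6ra and Il10ra. With the mean poly-A spike-in level as a covariate, limma called 0 of the 76 genes and 0 of all 22206 probe sets. In that fit 3 of the 76 genes (3.95%) and 1132 of all probe sets (5.10%) had an unadjusted p under 0.05, and the covariate itself did not overlap between fractions, so its 0 says nothing particular about the interleukin genes.

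**Figure D1:**
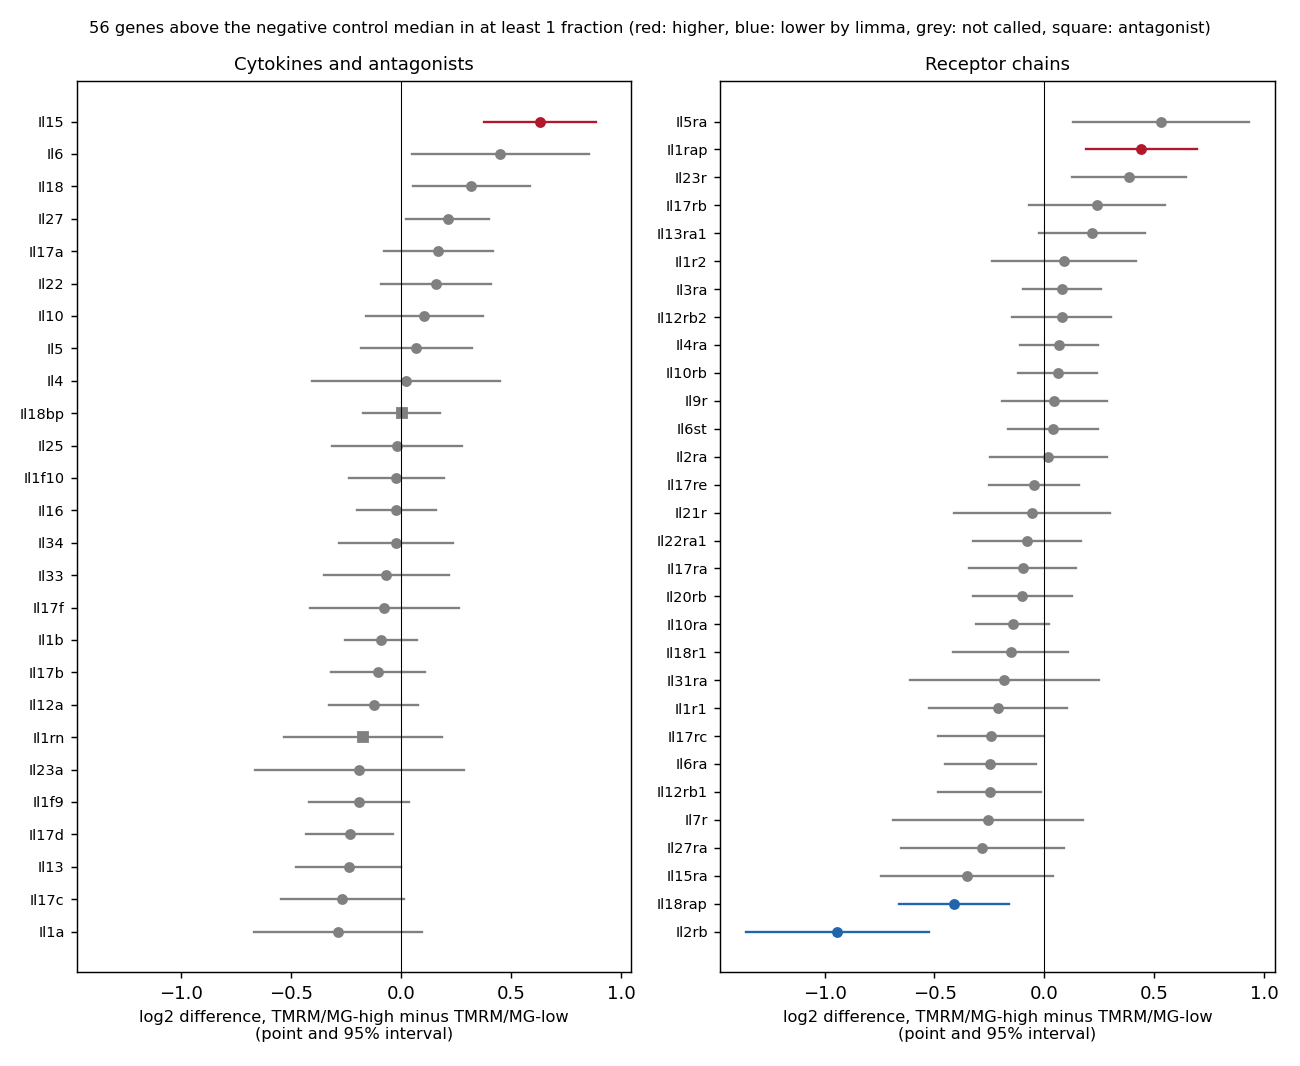
Log2 difference (TMRM/MG-high minus TMRM/MG-low, horizontal axis) with its 95% limma interval for the 56 genes above the negative control median in at least 1 fraction, cytokines and antagonists at left and receptor chains at right. Il15 and Il1rap are called higher (red), Il2rb and Il18rap lower (blue), and the intervals of most other genes include 0.

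Among the cytokines, Il15 was the 1 gene of 36 that passed the test, beside 8.25% of all probe sets. IL-15 maintains NK cells and memory CD8 T cells. Il15 signal was 9.37, 9.76, 9.33 and 9.50 in TMRM/MG-high replicates 1 to 4, against 8.84, 9.11, 8.80 and 8.69 in TMRM/MG-low replicates 1 to 4. Every TMRM/MG-high array lay above every TMRM/MG-low array. The difference was 0.63 (SE 0.12, 95% interval 0.38 to 0.89, limma adjusted p = 0.0126), or 1.55-fold. It was called without any 1 of the 8 arrays, with differences from 0.54 to 0.72, and was 0.73 with an adjusted p = 0.91 under the spike-in covariate. The list of mature dendritic cell genes, which rise when dendritic cells are activated, had 2 of 10 higher (Ccl22 and Cd83) and ranged from 10.8 to 10.9 in TMRM/MG-high and from 10.6 to 10.8 in TMRM/MG-low arrays. The list of plasmacytoid dendritic cell markers had 11 of 13 higher and a median difference of 0.85, with a list mean of 9.95 to 10.4 in TMRM/MG-high and 9.23 to 9.41 in TMRM/MG-low arrays. Of all probe sets 5.28% were called higher. The part of either list in the Il15 difference was not tested.

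The other 23 cytokine genes above the floor did not pass, with differences from -0.29 (Il1a) to 0.45 (Il6), and 8 of the 23 differences were positive. Il6, which encodes an inflammatory cytokine, had 8.11, 8.61, 7.87 and 8.21 in TMRM/MG-high and 8.09, 7.76, 7.92 and 7.23 in TMRM/MG-low arrays, and the fractions overlapped (SE 0.19, adjusted p = 0.152). Il18 encodes an IL-1 family cytokine that is cut to its active form by caspase-1 and induces interferon gamma with IL-12. It had 10.95, 11.11, 11.03 and 11.15 in TMRM/MG-high arrays, against 10.53, 10.49, 10.97 and 10.97 in TMRM/MG-low arrays. TMRM/MG-low replicates 3 and 4 reached the TMRM/MG-high values, and the difference of 0.32 was not called (SE 0.12, adjusted p = 0.129).

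Il1b, whose product is the main IL-1 released by myeloid cells, was 12.8 ± 0.056 in TMRM/MG-high and 12.9 ± 0.035 in TMRM/MG-low arrays (SD, n = 4 each). Its difference of -0.09 had a 95% interval of -0.26 to 0.07. Il1a differed by -0.29 (SE 0.17, adjusted p = 0.335), and TMRM/MG-low replicates 1 and 2 (9.20 and 9.04) lay above the other 6 arrays. Il10, an inhibitory cytokine, differed by 0.11 (SE 0.12, 95% interval -0.16 to 0.37). Il16, a chemoattractant for CD4 cells, differed by -0.02 (SE 0.08), Il17b by -0.10 (SE 0.10) and Il17c by -0.27 (SE 0.13, adjusted p = 0.215). None of the 11 genes of the IL-17 family, cytokines and receptors together, was called (limma), and their median difference was -0.08. An unadjusted limma p under 0.05 was found for 2 of the 11, and for 5653 of all 22206 probe sets.

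The IL-12 family is built of paired subunits and steers helper T cells toward or away from interferon gamma. Il27, the private subunit of IL-27, had 8.03, 8.18, 7.98 and 7.93 in TMRM/MG-high arrays, against 7.89, 7.69, 7.84 and 7.85 in TMRM/MG-low arrays. These values did not overlap, yet the difference of 0.21 did not pass (SE 0.087, adjusted p = 0.152). Ebi3, the other subunit of IL-27, has no Il symbol and was 9.07 ± 0.18 in TMRM/MG-high and 8.63 ± 0.23 in TMRM/MG-low arrays (SD, n = 4 each). It was higher by 0.45 (SE 0.13, adjusted p = 0.0489) without overlap. Il12a, a subunit of IL-12, differed by -0.13 (SE 0.093, 95% interval -0.33 to 0.08). Il23a, the private subunit of IL-23, ranged from 6.67 to 7.23 in TMRM/MG-high and from 6.68 to 7.94 in TMRM/MG-low arrays, and its difference of -0.19 turned to 0.05 without TMRM/MG-low replicate 1.

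Of the 36 receptor chain genes, 2 rose and 2 fell, and their median difference was -0.05. Of all probe sets 5.28% rose and 2.96% fell. Among the 30 receptor chain genes above the floor in at least 1 fraction, 1 rose and 2 fell. Of all probe sets above it 10.5% were called. So few calls do not set the receptor chains apart from the array. Il2rb, the signalling chain that receptors for IL-2 and IL-15 share, had the largest difference of the 76 genes. Its signal was 10.55, 10.82, 10.34 and 10.93 in TMRM/MG-high replicates 1 to 4, against 11.63, 12.00, 11.01 and 11.76 in TMRM/MG-low replicates 1 to 4. All TMRM/MG-high arrays lay below all TMRM/MG-low arrays, the nearest pair being TMRM/MG-high replicate 4 and TMRM/MG-low replicate 3. The difference was -0.94 (SE 0.19, 95% interval -1.36 to -0.53, limma adjusted p = 0.0164), a ratio of 0.52. The call held without each array in turn except TMRM/MG-high replicate 3 (-0.84, adjusted p = 0.0552), and without TMRM/MG-low replicate 3 the difference was -1.14. With the spike-in covariate it was -0.60 and not called.

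Il18rap encodes the chain that completes the IL-18 receptor, and it fell in the same direction. It had 8.33, 8.12, 8.04 and 8.35 in TMRM/MG-high arrays, against 8.70, 8.77, 8.32 and 8.70 in TMRM/MG-low arrays. TMRM/MG-low replicate 3 lay within the TMRM/MG-high range and apart from the other 3 of its fraction. The difference was -0.41 (SE 0.11, 95% interval -0.66 to -0.16, limma adjusted p = 0.0483). This call was lost without any 1 of TMRM/MG-high replicates 2, 3 and 4 or TMRM/MG-low replicates 1, 2 and 4 (highest adjusted p = 0.139). Under the spike-in covariate Il18rap differed by -0.04. Il18r1, the chain that binds IL-18, differed by -0.15 (SE 0.12, adjusted p = 0.467).

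Il2rb and Il18rap are expressed by T and NK cells, and part of the T cell markers were lower as well. In such bulk arrays fewer cells of a type and less RNA per cell cannot be told apart. Of 10 measured T cell markers, 6 were lower and 0 higher in TMRM/MG-high arrays, against 2.96% lower and 5.28% higher of all probe sets. Their list mean was 8.79, 8.86, 8.74 and 8.92 in TMRM/MG-high replicates 1 to 4, against 9.53, 9.54, 8.96 and 9.36 in TMRM/MG-low replicates 1 to 4. Cd8b1, the CD8 beta chain, had a positive difference of 0.30 that was not called (SE 0.14, adjusted p = 0.198). Cd3e, a chain of the T cell receptor complex, was 8.70 in TMRM/MG-high and 9.56 in TMRM/MG-low arrays. Of 9 NK cell markers 0 were called lower and 1 (Klrk1, 0.54, SE 0.13, adjusted p = 0.0263) was higher, while the list median difference was -0.55. Its mean was 8.80, 9.20, 8.59 and 9.36 in TMRM/MG-high arrays and 9.46, 9.85, 8.87 and 9.76 in TMRM/MG-low arrays. In each fraction replicate 3 was the lowest array for Il2rb, Il18rap and both marker lists. This order was not particular to them. Replicate 3 was also lowest in TMRM/MG-high and in TMRM/MG-low for uncalled genes such as Il1r2 (10.57 and 10.60) and Il17ra (10.37 and 10.48). For other genes, such as Il1rap and Il10ra, it was not the lowest in both. Of the 19 markers 0 lay below the floor in both fractions. The part of these markers in the receptor differences was not tested.

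**Figure D2:**
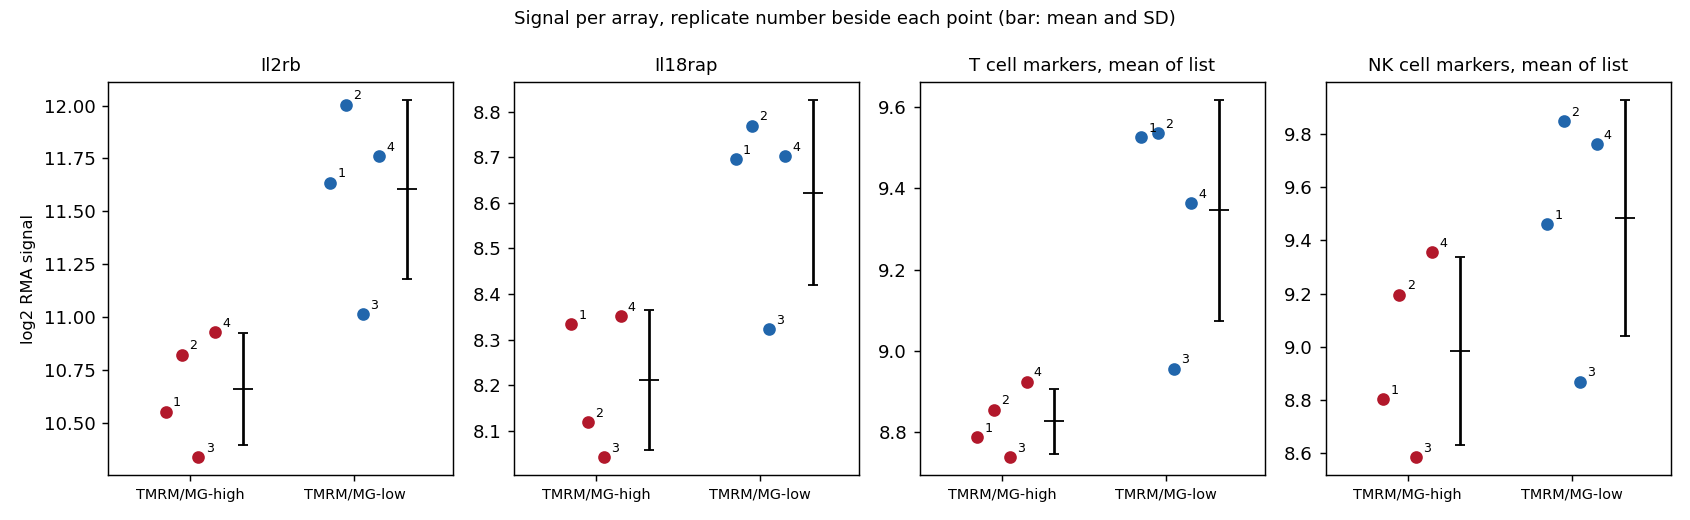
Log2 RMA signal per array (vertical axis, separate scale per panel) for Il2rb, Il18rap and the mean of 10 T cell and 9 NK cell marker genes, TMRM/MG-high at left and TMRM/MG-low at right in each panel, with replicate numbers and mean ± SD. Replicate 3 is the lowest array of each fraction in all 4 panels, as it is for some uncalled genes not drawn here (Il1r2 and Il17ra among them).

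Il7r, the IL-7 receptor chain of resting T cells, and Il21r, the IL-21 receptor, were not called, with differences of -0.26 (SE 0.20, 95% interval -0.69 to 0.18) and -0.06 (SE 0.16). Il7r ranged from 8.70 to 9.41 in TMRM/MG-high and from 8.81 to 9.81 in TMRM/MG-low arrays. Il15ra, which presents IL-15, had 9.62, 9.69, 9.01 and 9.13 in TMRM/MG-high arrays, against 9.50, 10.09, 9.42 and 9.86 in TMRM/MG-low arrays. The fractions overlapped, and the difference of -0.35 did not pass (SE 0.18, 95% interval -0.74 to 0.04, adjusted p = 0.248).

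The IL-1 receptor family held the rises among the receptor chains. Il1rap, the accessory chain that IL-1, IL-33 and IL-36 receptors share, had 8.13, 8.40, 8.25 and 8.12 in TMRM/MG-high arrays, against 7.99, 7.48, 7.90 and 7.77 in TMRM/MG-low arrays. The values did not overlap, although TMRM/MG-high replicate 4 and TMRM/MG-low replicate 1 were close. The difference was 0.44 (SE 0.12, 95% interval 0.19 to 0.69, limma adjusted p = 0.0393), and the call was lost without any 1 of TMRM/MG-high replicates 2, 3 and 4 or TMRM/MG-low replicates 2 and 4 (highest adjusted p = 0.12), and with the replicate number as a block (adjusted p = 0.0627). The plasmacytoid dendritic cell markers given beside Il15 moved in the same direction, and their part was not tested. Under the spike-in covariate the difference was 0.20. Il1rl2, the IL-36 receptor chain, had 5.71, 6.00, 5.72 and 6.08 in TMRM/MG-high and 5.53, 5.42, 5.06 and 5.52 in TMRM/MG-low arrays. All 8 values were below the floor, so the called difference of 0.50 (SE 0.12, adjusted p = 0.0338) has an uncertain size. That call was lost without 6 of the 8 arrays in turn; it held without TMRM/MG-high replicate 1 or TMRM/MG-low replicate 3.

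**Figure D3:**
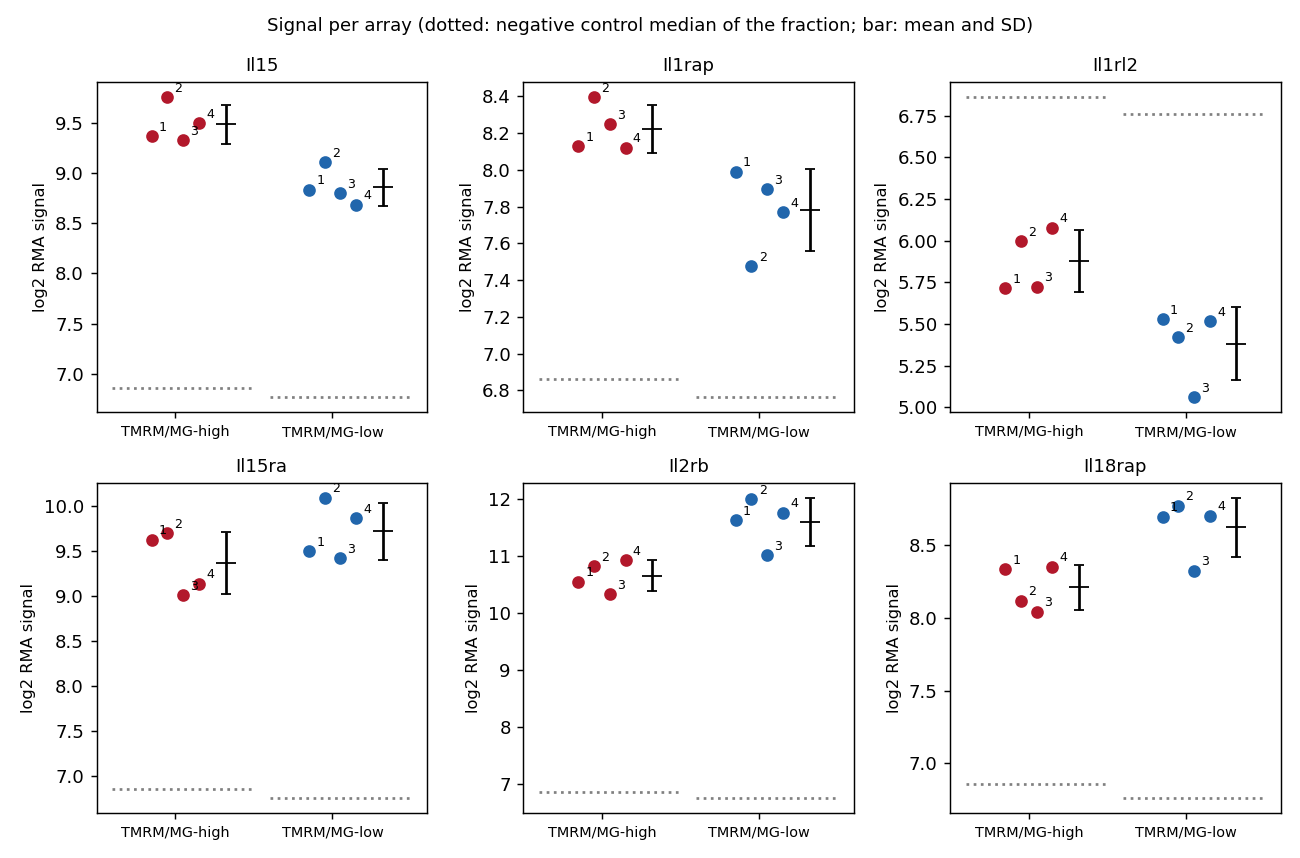
Log2 RMA signal per array (vertical axis, separate scale per panel) of the 5 called genes and Il15ra, TMRM/MG-high at left and TMRM/MG-low at right, with replicate numbers, mean ± SD and the negative control median of each fraction as a dotted line. Il15, Il1rap, Il1rl2 and Il2rb do not overlap between fractions, Il15ra and Il18rap do, and Il1rl2 lies below the dotted lines.

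Il1r2, Il1r1, Il1rl2, Il18r1 and Il18rap lie in this order along mouse chromosome 1 in the RefSeq annotation (GRCm38.p6), and they did not move as a block. Their differences in that order were 0.09, -0.21, 0.50, -0.15 and -0.41, of which those of Il1rl2 and Il18rap were called. Il1r2 encodes a decoy receptor for IL-1; its SE was 0.15 and its adjusted p = 0.768, and without TMRM/MG-low replicate 3 its difference was -0.00039. The neutrophil marker list, a cell type rich in Il1r2, had 1 of 9 lower (Csf3r), against 2.96% of all probe sets. Its list mean was 8.38 to 9.21 in TMRM/MG-high and 9.27 to 9.86 in TMRM/MG-low arrays, and its part in the Il1r2 values was not tested.

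The promoters of Il18rap and Il1rap are shown because these genes encode accessory chains of the same receptor family and were called in opposite directions. The sequence table gives 250 bases before a transcript's start, from RefSeq (GRCm38.p6), and the bases of that window that precede the annotated gene are printed. These are chr1:40515112-40515361 on the plus strand for Il18rap (250 bases) and chr16:26581455-26581508 on the plus strand for Il1rap (54 bases, the other 196 lying within the annotated gene). Capitals mark matches on either strand to any of 4 motifs, namely NF-kB (GGG and CC with 5 bases of any kind between them), ISRE (GAAA and GAAA with 2 between them), GAS (TTC and GAA with 3 between them) and AP-1 (TGA and TCA with 1 between them).
Il18rap: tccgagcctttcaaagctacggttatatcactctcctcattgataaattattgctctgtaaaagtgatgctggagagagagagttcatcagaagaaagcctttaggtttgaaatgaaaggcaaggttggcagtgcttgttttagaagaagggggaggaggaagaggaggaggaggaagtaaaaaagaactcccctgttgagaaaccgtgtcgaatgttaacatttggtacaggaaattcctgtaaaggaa
Il1rap: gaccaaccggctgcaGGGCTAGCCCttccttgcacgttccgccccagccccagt
The Il18rap window held no match to these letters, and the whole Il1rap window held NF-kB matches in 4 separate stretches, 1 of them in the printed bases. The NF-kB letters are loose and occur in 45.8% of 32841 promoters of that length. Among 72 promoters of 59 member genes in the same table, 33 of which reach into the annotated gene, NF-kB letters stood in 44.4%, ISRE letters in 2.78% (2.98% of all promoters), GAS letters in 11.1% (7.02%) and AP-1 letters in 19.4% (6.75%). The 14 member genes with AP-1 letters include Il6, Il1a, Il1rn, Il17a, Il15ra and Il5ra. Of the 59 genes 3 were called (Il18rap, Il1rap and Il1rl2), and Il15 and Il2rb were not among them. A match of letters is a description of the sequence and not a site of binding.

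None of the receptor chains for the other cytokines described next passed the test. Il6st, the shared signalling chain gp130, differed by 0.04 (SE 0.094, 95% interval -0.17 to 0.24), Il10rb by 0.06 (SE 0.083), Il4ra by 0.07 (SE 0.081) and Il12rb2 by 0.08 (SE 0.10), and each of these 4 turned negative after quantile normalization of the tested probe sets (-0.05, -0.02, -0.01 and -0.00079). Il3ra, the IL-3 receptor chain, differed by 0.08 (SE 0.081, 95% interval -0.10 to 0.26). The plasmacytoid dendritic cell list had 11 of 13 higher, against 5.28% of all probe sets, and its part in the Il3ra values was not tested. Il10ra, the ligand-binding chain of the IL-10 receptor, had 11.51, 11.58, 11.63 and 11.63 in TMRM/MG-high arrays, against 11.78, 11.73, 11.72 and 11.69 in TMRM/MG-low arrays. The fractions did not overlap, and the difference of -0.15 did not pass (SE 0.075, adjusted p = 0.253).

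Il6ra, the ligand-binding chain for IL-6, had 11.12, 11.13, 11.11 and 11.12 in TMRM/MG-high arrays, against 11.59, 11.15, 11.36 and 11.37 in TMRM/MG-low arrays. All TMRM/MG-high arrays were lower and nearly equal, and the difference of -0.25 was not called (SE 0.095, adjusted p = 0.131), but was with an intensity trend and robust fit (adjusted p = 0.0458). Il23r, the private chain of the IL-23 receptor, was 7.85, 7.81, 7.96 and 7.87 in TMRM/MG-high arrays, against 7.14, 7.76, 7.51 and 7.54 in TMRM/MG-low arrays, and its difference of 0.38 lay just outside the threshold (SE 0.12, adjusted p = 0.0677). It was called with array weights (adjusted p = 0.049) and without TMRM/MG-low replicate 2 (0.48, adjusted p = 0.0458). Il5ra, the IL-5 receptor chain, differed by 0.53 (SE 0.18, adjusted p = 0.0968), with a TMRM/MG-low mean of 6.39 below the floor, and was called with the replicate block (adjusted p = 0.0353) and without TMRM/MG-low replicate 4 (0.68, adjusted p = 0.0482). Il12rb1, shared by the IL-12 and IL-23 receptors, differed by -0.25 (SE 0.11, adjusted p = 0.174), and without TMRM/MG-low replicate 3, at 7.37 the lowest of its fraction, it was called lower (-0.34, adjusted p = 0.0396).

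Cytokines were set against receptor chains within each array for the 7 listed pairs in which both genes were above the floor in at least 1 fraction. In 5 of the 7 pairs, namely Il15/Il15ra, Il18/Il18r1, Il10/Il10ra, Il27/Il27ra and Il6/Il6ra, the cytokine's difference was positive and the receptor's negative. Of the paired genes only Il15 was called. The pairs do not stand for all genes of either kind. Above the floor, 9 of 24 cytokine differences (37.5%) and 13 of 30 receptor differences (43.3%) were positive. Their medians were -0.02 and -0.07. For Il15 and Il15ra, the cytokine minus the receptor was 0.13 ± 0.28 in TMRM/MG-high and -0.86 ± 0.27 in TMRM/MG-low arrays (SD, n = 4 each), so that the cytokine moved by 0.98 more than its receptor chain. The arrays did not overlap (-0.25 to 0.37 in TMRM/MG-high and -1.18 to -0.62 in TMRM/MG-low; two-sided exact permutation p = 0.0286, the smallest that 4 against 4 arrays allow, adjusted 0.1 over the 7 pairs). For Il6 and Il6ra the unequal change was 0.70 (exact p = 0.0286, adjusted 0.1), for Il27 and Il27ra 0.49 and for Il18 and Il18r1 0.47 (each exact p = 0.0571, adjusted 0.1). For Il10 and Il10ra it was 0.25 (exact p = 0.114), for Il1b and Il1r1 0.12 (exact p = 0.457) and for Il4 and Il4ra -0.04 (exact p = 0.857). After adjustment 0 of the 7 pairs passed, and 2 had an unadjusted exact p under 0.05. An adjusted p under 0.05 needs at least 5 of the 7 pairs at that smallest p, so no single pair could have passed.

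**Figure D4:**
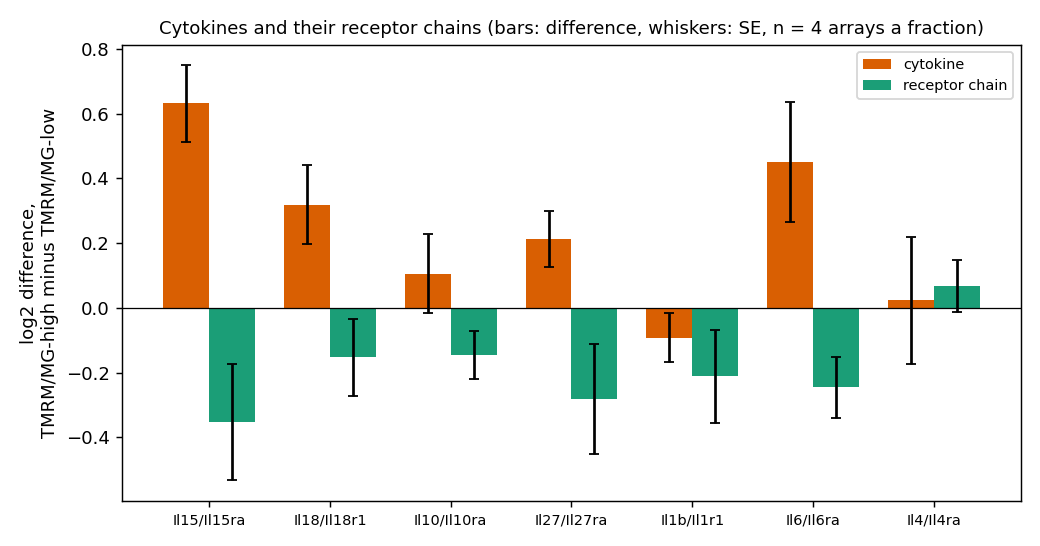
Log2 difference (TMRM/MG-high minus TMRM/MG-low, vertical axis) of the cytokine (orange) and of its receptor chain (green) in the 7 listed pairs, with the limma SE as whiskers. The cytokine bar is above 0 and the receptor bar below 0 in 5 pairs, Il15/Il15ra having the largest gap (0.63 against -0.35). Of the genes drawn only Il15 was called. Above the floor, 9 of 24 cytokine and 13 of 30 receptor differences were positive.

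Genes that carry interleukin signals were counted in 6 lists of genes without an Il symbol. Of their 58 genes 6 rose (10.3%, against 5.28% of all probe sets) and 3 fell (5.17%, against 2.96%). Nearly all of the 58 lay above the floor, where more probe sets were called. Of the 16859 probe sets above the floor in at least 1 fraction, 1153 rose and 619 fell (10.5% in either direction). Of 9 partner chains and cytokines, 1 rose (Ebi3) and 0 fell. JAK kinases and STAT factors had 0 rises and 2 falls among 9: Stat2, which works in interferon signalling, by -0.54 (SE 0.082, adjusted p = 0.00581), and Tyk2, the kinase bound to IL-12 and interferon receptors, by -0.44 (SE 0.080, adjusted p = 0.0117). Stat5a and Stat5b, which IL-2 and IL-15 receptors activate, differed by -0.15 (SE 0.091) and -0.11 (SE 0.080) and were not called. Suppressors of cytokine signalling had 2 rises and 1 fall among 14: the phosphatase gene Ptpn2 (0.27) and the STAT inhibitor Pias1 (0.37) rose and its relative Pias3 fell (-0.37). Signalling from IL-1 family receptors had 1 rise among 9, Tab3, an adaptor of the kinase TAK1 (0.57, SE 0.096, adjusted p = 0.00924), and Myd88 differed by 0.09 (SE 0.083). Among 6 genes of IL-1 family processing, the inflammasome adaptor Pycard rose (0.34, SE 0.076, adjusted p = 0.0234), and Casp1, which cuts pro-IL-1 beta and pro-IL-18, differed by 0.22 (SE 0.088, adjusted p = 0.145). Of 11 transcription factors tied to Il12b and Il15, Nfil3 rose (0.35, adjusted p = 0.0444), and Irf1 differed by -0.19 (SE 0.091) and Rel by 0.07 (SE 0.076). The list medians ranged from -0.11 (JAK kinases and STAT factors) to 0.22 (IL-1 family processing), beside 0.01 over all probe sets.

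The 20 genes below the floor in both fractions were 12 cytokines, 6 receptor chains and 2 antagonists, a share of 26.3%, against 24.1% of all probe sets. They include Il2, Il3, Il7, Il9, Il11 and Il21, cytokines that lymphocytes or stromal cells make. Apart from Il1rl2, none was called, and their differences lay between -0.36 (Il22ra2, the soluble IL-22 binding protein) and 0.50 (Il1rl2). The antagonists Il1rn, which blocks the IL-1 receptor, and Il18bp, which binds IL-18, were above the floor and differed by -0.17 (SE 0.17) and 0.0021 (SE 0.080).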

How the data were processed

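The 8 arrays were grouped by sample title. Per the submitters' processing notes, the deposited log2 values come from RMA, run in Affymetrix Expression Console 1.1, per the labels from biotin-labelled total RNA. RMA gives the probe intensities of all arrays one distribution before they are summarised to probe sets. Any change common to most transcripts is thus lost and differences are relative. The probe set values did not share one distribution exactly. Array medians of the tested probe sets ran from 8.11 (TMRM/MG-high replicate 4) to 8.16 (TMRM/MG-high replicate 2). The number of arrays limits the precision. A genome build was not stated in those notes. Of 28846 rows, 22206 probe sets were tested after leaving out controls, and 76 members matched RefSeq by Entrez ID. limma 3.58.1 (R 4.3.3; lmFit, eBayes, no block) gave two-sided p-values; the procedure was tested on simulated data. Members, lists and alternatives were chosen with earlier results of these data known. Genes named were those called, the 6 cytokines and 8 receptors of highest mean, the 6 largest uncalled differences above the floor, a list of 21 names, and up to 3 called genes per pathway list; other genes were named after their values were seen. Alternatives were a replicate block, normalization, dim probe sets, variance model, array weights, thresholds, rows per gene, the spike-in covariate and leaving out each array. Figures were drawn with matplotlib 3.10.9.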

Additional observations from a re-analysis of the deposited data

Results flagged for a closer look

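In 3 of 78 groups of 4 arrays examined for the named genes, 1 array stood further from the others than Dixon's criterion allows (gap over range above 0.829), beside about 3.9 expected by chance at 1 in 20. Il18rap in TMRM/MG-low replicate 3 was 8.32, against 8.70 to 8.77 in the other 3 arrays of its fraction (ratio 0.835). Il4ra in TMRM/MG-high replicate 3 was 11.3, against 11.5 in each of the others (ratio 0.84). Il6ra in TMRM/MG-high replicate 3 was 11.11, against 11.12 to 11.13 (ratio 0.83), with all 4 arrays nearly equal.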

How the results depend on the processing

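Il15, Il2rb, Il18rap, Il1rap and Il1rl2 all remained called after quantile normalization, median centring, array weights, an intensity trend with robust fit and 1 row or the mean per gene; 4 remained with dim probe sets left out, which removes Il1rl2. With the replicate block 6 of the 76 genes were called, beside 8.44% of all probe sets. Among the 6 were 4 of the main calls, with Il5ra and Il22ra2 added. Il1rap was lost (limma adjusted p = 0.0627). Whether equal numbers mark paired arrays is not stated in the labels. Deviations of same-numbered arrays correlated at 0.271, 0.0548, 0.0152 and 0.0391, all positive. For TMRM/MG-high replicates 2, 3 and 4 a TMRM/MG-low array of another number correlated better (0.168, 0.0188 and 0.147). With the block the SE of Il2rb was 0.10 (0.19 without) and that of Il1rap 0.13 (0.12 without). At a threshold of 0.1, 5 members rose (2061 probe sets rose and 1174 fell in all). At 0.01, 0 rose and 0 fell (73 and 113 in all). An unadjusted limma p under 0.05 was found for 19 of the 76 members and for 5653 of all 22206 probe sets. The trend with robust fit raised 1950 probe sets. With the spike-in covariate limma called 0 members and 0 probe sets either way (3 and 1132 at an unadjusted p under 0.05), and the cytokine median became 0.17. Leaving out 1 array gave 1 to 3 members higher and 0 to 5 lower, 183 to 1680 probe sets higher and 218 to 793 lower; Il15 alone was called in all 8. Without TMRM/MG-low replicate 3, when 11.1% of all probe sets were called, Il12rb1, Il1a and Il22ra2 were called too. Without TMRM/MG-high replicate 3, when 2.13% were called, Il15 was the 1 member left. For the cytokine and receptor pairs the adjusted test could hardly pass, and 3 against 4 arrays cannot go below an exact p of 0.0571, so their alternatives say nothing of stability.

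Of 569 alternative values for the 30 named genes, 507 kept direction and side of the threshold and 23 turned sign, none of a called gene. After quantile normalization Il6st was -0.047, Il10rb -0.017, Il4ra -0.012 and Il12rb2 -0.00079. With the spike-in covariate Il18 was -0.15, Il17b 0.24, Il17c 0.32, Il6st -0.27, Il10rb -0.085, Il15ra 0.26, Il1a 0.24, Il23a 0.18, Il12rb1 0.023, Il21r 0.11 and Il7r 0.0024. Over the 8 omissions Il16 ranged from -0.056 to 0.025, Il21r from -0.16 to 0.084, Il6st from -0.0025 to 0.099, Il23a from -0.36 to 0.054, Il12rb2 from -0.0051 to 0.14 and Il1r2 from -0.00039 to 0.22. The cause of these changes was not tested.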
